A study of Homo sapiens with 10 samples.

Results

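AP-1 and immediate early transcription factors were followed through 10 genes, JUN, JUNB, JUND, FOS, FOSB, FOSL1, FOSL2, BATF, ATF3 and EGR1, out of 21174 genes in the count table. They were listed by name, and JUN was singled out because earlier work on the same libraries had found it high in Het_8, Het_9 and Het_10, so its levels and its fitted difference are given as a description only. RNA was sequenced from clones of U2932, a human diffuse large B cell lymphoma line, in 5 libraries labelled CREBBP+/- (Het_6 to Het_10) and 5 labelled CREBBP+/+ (WT_1 to WT_5). CREBBP is a histone acetyltransferase and coactivator. All clones were kept in RPMI with heat-inactivated serum and antibiotics, and no further treatment is given. How the CREBBP allele was altered, and how each clone was derived, is not given in the sources used here.

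AP-1 is a family of dimers built from basic leucine zipper proteins. JUN proteins pair with each other or with FOS proteins, FOS proteins need a JUN partner, and BATF pairs with JUN proteins but lacks the transactivation domain of FOS. JUN, FOS, FOSB, EGR1 and ATF3 are immediate early genes, whose transcription responds to mitogens or stress without new protein synthesis, through kinases of the ERK, JNK and p38 families. CREBBP was first known as a partner of the factor CREB and also acts as a coactivator for JUN and FOS. In B cells these genes respond to antigen receptor signals, and BATF works with IRF factors in the germinal centre.

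Total counts ran from 10615977 to 23020694 in the CREBBP+/- libraries, with Het_9 the lowest, and from 16542932 to 21817971 in the CREBBP+/+ libraries. CREBBP itself had 56.8 to 80.7 CPM in CREBBP+/- clones and 103 to 136 CPM in CREBBP+/+ clones. CPM are counts per 1000000 counts of the library, with TMM factors. All 8 B cell markers examined were measured. Of 24 markers of other cell types 2 passed the filter on low counts, CD14 and EPCAM, and the T and NK markers summed to at most 4.5 CPM in CREBBP+/- clones and 0.879 CPM in CREBBP+/+ clones. The myeloid markers summed to 0.772 to 1.80 CPM in CREBBP+/- clones and 0.493 to 1.75 CPM in CREBBP+/+ clones, and the stromal, epithelial and erythroid markers to 13.9 to 26.9 CPM in CREBBP+/- clones and 2.07 to 25.1 CPM in CREBBP+/+ clones. The B cell markers summed to 2930 to 5030 CPM in CREBBP+/- clones and 4130 to 6010 CPM in CREBBP+/+ clones. Of these 8 markers, 5 had a log2 fold change above 0 and 3 below, where 47.6% of all genes tested were above 0. Their median was 0.087 and the lowest was -0.99. In edgeR 2 of the 8 had an unadjusted p under 0.05, where 4.98% of all genes tested did. Only CD74, the invariant chain of MHC class II, passed in DESeq2 (adjusted p = 0.00827). It did not pass in edgeR (adjusted p = 0.671), and its log2 fold change was -0.73, so the lowest, -0.99, belonged to another marker. CD74 had 873, 1410 and 1450 CPM in Het_8, Het_9 and Het_10, and 1500 and 1600 CPM in Het_6 and Het_7. CREBBP+/+ clones had 1990 to 2600 CPM, above every CREBBP+/- library. Of all genes tested, 1.02% had no overlap between the genotypes in either direction. The libraries with high JUN were lowest for CD74, but Het_10 at 1450 CPM was barely below Het_6 at 1500 CPM. Of the 8 markers 1 was lowest in these libraries, where 2.68% of all genes tested were. The part of these markers in the results was not tested. The libraries fell into 3 clusters by 11823 other genes: Het_8 with WT_1 and WT_2, Het_6 and Het_7 with WT_3, WT_4 and WT_5, and Het_9 with Het_10. Nothing in the labels says whether clones were grown or prepared separately, so any p-value covers the spread of these libraries alone, which may be technical.

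JUN, the founding AP-1 subunit (ENSG00000177606, chromosome 1, 58776845 to 58784048, minus strand, GRCh38), was at one level in 3 CREBBP+/- libraries and at another in all others. It had 18.3 CPM in Het_8, 17.2 in Het_9 and 18.7 in Het_10, against 2.35 in Het_6, 2.56 in Het_7, 1.54 in WT_1, 3.93 in WT_2, 2.53 in WT_3, 4.34 in WT_4 and 2.29 in WT_5. The lowest of the 3 was 3.96 times the highest of the other 7, which rests on 187 to 401 counts in the 3 libraries and 25 to 79 in the others. Among 11961 genes that passed the filter on low counts, a wider ratio was found for ENAH alone (16.1), an actin regulator chosen after its values were seen. JUN was itself chosen by this contrast, so its place in this order is a description. The 3 JUN-high libraries lie in different clusters, Het_8 beside WT_1 and WT_2 with little JUN, and Het_9 with Het_10. In bulk RNA, more JUN in every cell and more cells with JUN cannot be told apart.

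EGR1 and FOSB shared the pattern, with far smaller ratios. EGR1, a zinc finger factor that is transcribed within minutes of ERK signalling (ENSG00000120738, chromosome 5, 138465479 to 138469303), had 151, 104 and 121 CPM in Het_8, Het_9 and Het_10, 70.5 in Het_6 and 33.4 in Het_7, and in WT_1 to WT_5 83.6, 86.2, 48.8, 90.6 and 32.9 CPM. The lowest of the 3 was 1.15 times the highest of the other 7. Among those 7, EGR1 ran from 32.9 to 90.6 CPM, with Het_7, WT_5 and WT_3 lowest. FOSB, a FOS partner of JUN (ENSG00000125740, chromosome 19, 45467995 to 45475179), had 9.10, 15.5 and 15.4 CPM in Het_8, Het_9 and Het_10, 3.24 and 3.57 in Het_6 and Het_7, and 5.30, 6.87, 4.33, 8.52 and 5.63 CPM in WT_1 to WT_5. Its ratio was 1.07, so Het_8 was barely above WT_4, and Het_6 and Het_7 were below every CREBBP+/+ library. FOSB lies within the span of ERCC1 on the other strand, and the use of strand in counting is not given in the sources used here. ERCC1 had 43.4 to 64.1 CPM in the 3 JUN-high libraries and 42.9 to 65.8 CPM in the other 7, which overlap.

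BATF, the AP-1 factor that pairs with JUN proteins in place of FOS (ENSG00000156127, chromosome 14, 75522455 to 75546993), had the reverse pattern. It had 10.7 CPM in Het_8, 7.99 in Het_9 and 9.04 in Het_10, against 33.6 and 34.5 CPM in Het_6 and Het_7, and 15.8, 16.1, 33.7, 18.7 and 16.1 CPM in WT_1 to WT_5. BATF thus fell into 3 levels, with Het_6, Het_7 and WT_3 high, the other CREBBP+/+ libraries between, and the JUN-high libraries lowest. The lowest of the 7 was 1.48 times the highest of the 3. Of the 9 members that passed the filter on low counts, 3 (JUN included) were above in Het_8, Het_9 and Het_10 and 1 was below. Over all genes tested, 2.48% were above in these libraries and 2.68% were below. These counts are a description, since JUN was chosen by this contrast.

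**Figure D1:**
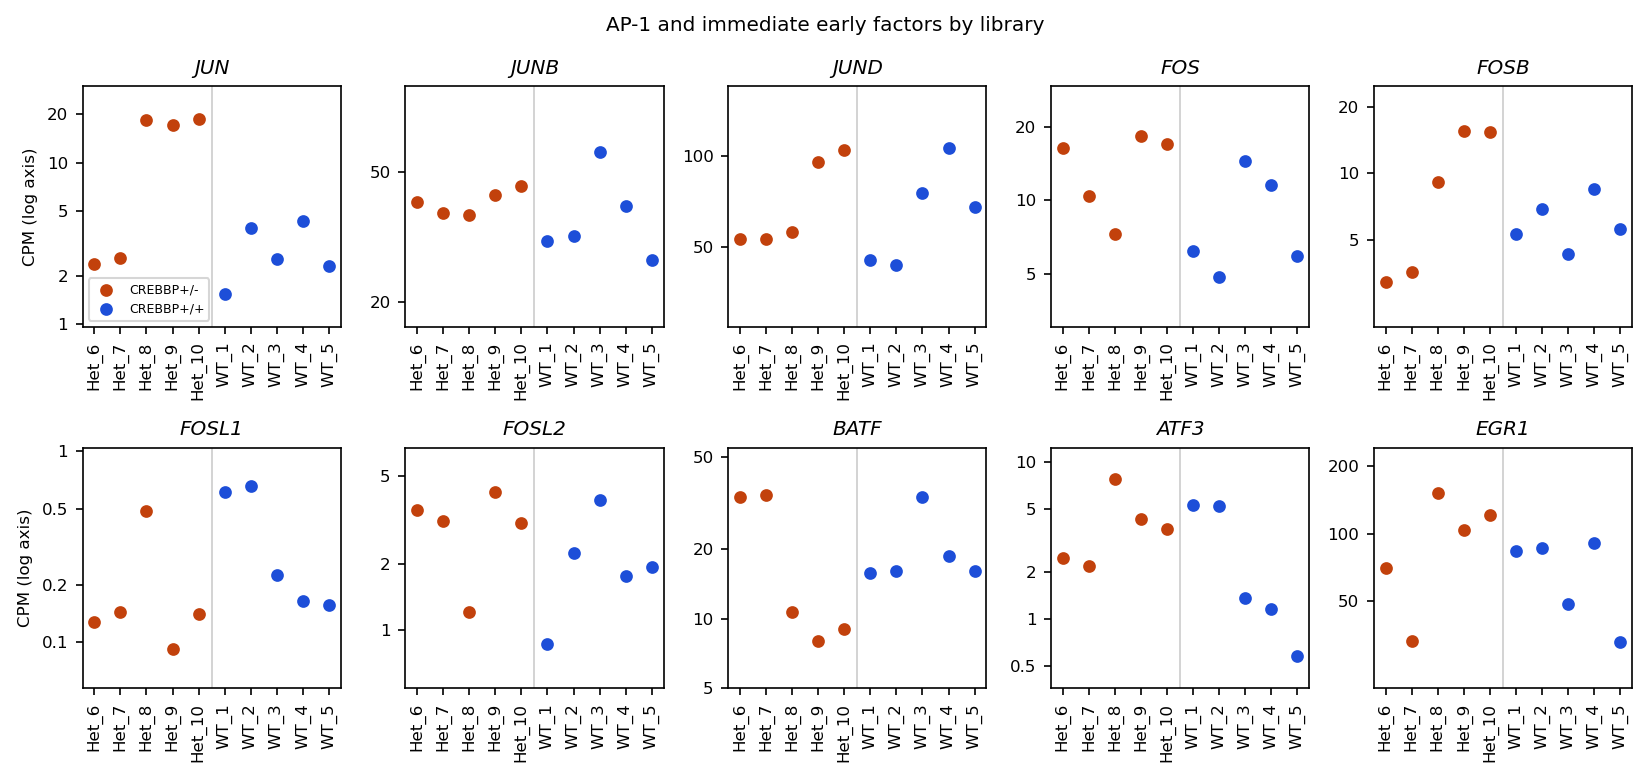
CPM of each of the 10 genes in each library, on a log axis whose range differs between panels, with 1 point per library, CREBBP+/- to the left and CREBBP+/+ to the right of the line. In Het_8, Het_9 and Het_10 JUN ranges from 17.2 to 18.7 CPM, EGR1 and FOSB are also highest and BATF is lowest.

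The bases upstream of the start of these genes are shown because they share or oppose the JUN pattern. Each run is the 250 bases before the RefSeq start (build GRCh38.p14), 5′ to 3′ on the gene's strand, for JUN at chr1:58784048-58784297 (minus strand) and, on the plus strand, for EGR1 at chr5:138465229-138465478, FOSB at chr19:45467746-45467995 and BATF at chr14:75522219-75522468. Capitals mark matches, on either strand, to the AP-1 site TGANTCA, the CREB site TGACGTCA, its variant TGACATCA, the EGR site GCGNGGGCG or the CArG box of serum response factor.
JUN: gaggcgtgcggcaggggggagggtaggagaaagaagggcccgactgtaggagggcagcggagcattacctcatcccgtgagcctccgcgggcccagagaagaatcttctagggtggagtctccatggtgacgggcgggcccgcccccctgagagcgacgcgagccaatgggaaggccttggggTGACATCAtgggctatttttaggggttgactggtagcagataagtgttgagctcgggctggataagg
EGR1: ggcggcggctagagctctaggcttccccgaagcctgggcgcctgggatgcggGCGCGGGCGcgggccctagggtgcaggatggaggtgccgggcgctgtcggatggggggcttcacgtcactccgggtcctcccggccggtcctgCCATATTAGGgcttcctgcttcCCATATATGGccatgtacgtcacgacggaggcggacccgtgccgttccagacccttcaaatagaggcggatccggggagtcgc
FOSB: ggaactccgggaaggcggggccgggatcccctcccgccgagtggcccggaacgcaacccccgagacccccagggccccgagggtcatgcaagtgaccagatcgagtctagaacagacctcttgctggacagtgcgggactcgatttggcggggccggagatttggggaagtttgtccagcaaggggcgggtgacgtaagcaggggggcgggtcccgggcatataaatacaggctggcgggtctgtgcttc
BATF: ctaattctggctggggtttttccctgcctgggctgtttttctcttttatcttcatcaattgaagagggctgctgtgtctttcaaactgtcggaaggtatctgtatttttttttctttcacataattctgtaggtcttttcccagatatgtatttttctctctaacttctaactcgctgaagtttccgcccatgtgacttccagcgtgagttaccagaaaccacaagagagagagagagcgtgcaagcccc
JUN held TGACATCA at -67 to -60 from its start, a sequence in 2.37% of 35116 RefSeq promoter windows of this length. This variant was searched for as that of JUN, so its match in JUN was set in advance. The first of the ATF3 windows held TGACATCA too, at -123 to -116. EGR1 held CArG boxes at -105 to -96 and -83 to -74, a match in 1.16% of windows, and the EGR site GCGCGGGCG at -198 to -190 (8.41% of windows). These 3 matches do not overlap each other. FOSB and BATF held none of the 5 motifs, which says only that these letters are not in these windows. Among the other members, JUND held the CREB site TGACGTCA (1.65% of windows) at -200 to -193, and no window of the 9 genes matched held TGANTCA (6.57% of windows). A match is a description of the letters and not of binding.

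The other JUN proteins did not follow JUN. JUNB, which can oppose JUN on some targets (ENSG00000171223, chromosome 19, 12791486 to 12793315), had 40.5, 37.6, 37.0, 42.6 and 45.3 CPM in Het_6 to Het_10, and 30.8, 31.9, 57.6, 39.5 and 26.8 CPM in WT_1 to WT_5. All CREBBP+/- values lay within the CREBBP+/+ range, which WT_3 set at its top. JUNB lies within the span of HOOK2 on the other strand, at 6.70 to 11.4 CPM in CREBBP+/- clones and 5.18 to 11.4 CPM in CREBBP+/+ clones. JUND, the most steadily expressed JUN protein in many cells (ENSG00000130522, chromosome 19, 18279694 to 18281622), had 53.3, 53.1, 56.2, 96.0 and 105 CPM in Het_6 to Het_10, against 45.4, 43.6, 75.8, 107 and 67.9 CPM in WT_1 to WT_5. Het_9 and Het_10 were thus high for JUND with WT_4, and Het_8, equal to them in JUN, was near Het_6 and Het_7.

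FOS, the main inducible partner of JUN (ENSG00000170345, chromosome 14, 75278826 to 75282230), had 16.3, 10.4, 7.30, 18.3 and 16.9 CPM in Het_6 to Het_10, against 6.22, 4.86, 14.4, 11.5 and 5.94 CPM in WT_1 to WT_5. Het_9, Het_10 and Het_6 were above every CREBBP+/+ library, and Het_8 was not. FOSL2, a FOS protein with slower kinetics (ENSG00000075426, chromosome 2, 28392448 to 28417317), had 3.50, 3.14, 1.20, 4.23 and 3.07 CPM in Het_6 to Het_10, against 0.863, 2.24, 3.88, 1.76 and 1.93 CPM in WT_1 to WT_5. It was lowest in WT_1 and Het_8, so it too left Het_8 apart from Het_9 and Het_10. FOSL1, the other FOS-like protein (ENSG00000175592, chromosome 11, 65892049 to 65900573), did not pass the filter on low counts and was not tested. It had 9 counts in Het_8, 10 in WT_1 and 12 in WT_2, which form 1 cluster, against 1 to 5 counts in the other 7 libraries.

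ATF3, a stress-induced factor that can act as a repressor (ENSG00000162772, chromosome 1, 212565334 to 212620777), went with the library clusters. It had 2.43, 2.17, 7.79, 4.32 and 3.73 CPM in Het_6 to Het_10, against 5.36, 5.29, 1.35, 1.15 and 0.573 CPM in WT_1 to WT_5. The cluster of Het_8, WT_1 and WT_2 was highest, Het_9 and Het_10 lay between, and the cluster of Het_6, Het_7 and WT_3 to WT_5 was lowest. Inside each of the clusters with both genotypes, every CREBBP+/- library was above every CREBBP+/+ library. These were 7.79 against 5.36 and 5.29 CPM in the one and 2.43 and 2.17 against 0.573 to 1.35 CPM in the other. The share of all genes tested that were split in this way was not counted. This split was seen in few libraries and after the values were known, so nothing is read from it.

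Levels between genes were compared per kilobase of exon (GENCODE). In the JUN family, JUN was the smallest part in every library. It was 9.29%, 6.09% and 6.10% of the family sum in Het_8, Het_9 and Het_10, 1.28% and 1.45% in Het_6 and Het_7, and 0.975 to 2.64% in the CREBBP+/+ libraries. JUND was the largest part in each library, at 53.5 to 64.6% in CREBBP+/- clones and 55.0 to 70.9% in CREBBP+/+ clones. The family sum was 48.8 to 84.4 CPM per kb in CREBBP+/- clones and 40.8 to 78.3 CPM per kb in CREBBP+/+ clones, and Het_8, with the largest JUN share, had a sum of 54.4 CPM per kb. JUN-high libraries therefore did not all have a high family sum.

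In the FOS family, FOS was the largest part in each library, at 52.6 to 81.7% in CREBBP+/- clones and 44.5 to 75.8% in CREBBP+/+ clones. FOSB took 37.6%, 30.5% and 32.4% of the sum in Het_8, Het_9 and Het_10, 9.35% and 14.5% in Het_6 and Het_7, and 13.1 to 36.2% in CREBBP+/+ libraries. The FOSB share thus separated the 3 JUN-high libraries from Het_6 and Het_7, but overlapped those of WT_2 (36.2%) and WT_5 (31.4%). The summed FOS family stood at 9.17 and 8.57 CPM per kb in Het_9 and Het_10, above the 3.23 to 6.24 CPM per kb of all others. Het_8 had 4.36 CPM per kb. BATF per kilobase had 8.61 to 37.2 CPM per kb in CREBBP+/- clones and 17.1 to 36.3 CPM per kb in CREBBP+/+ clones, more than the FOS family sum of the same library except in Het_9, where the FOS sum was 9.17.

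**Figure D2:**
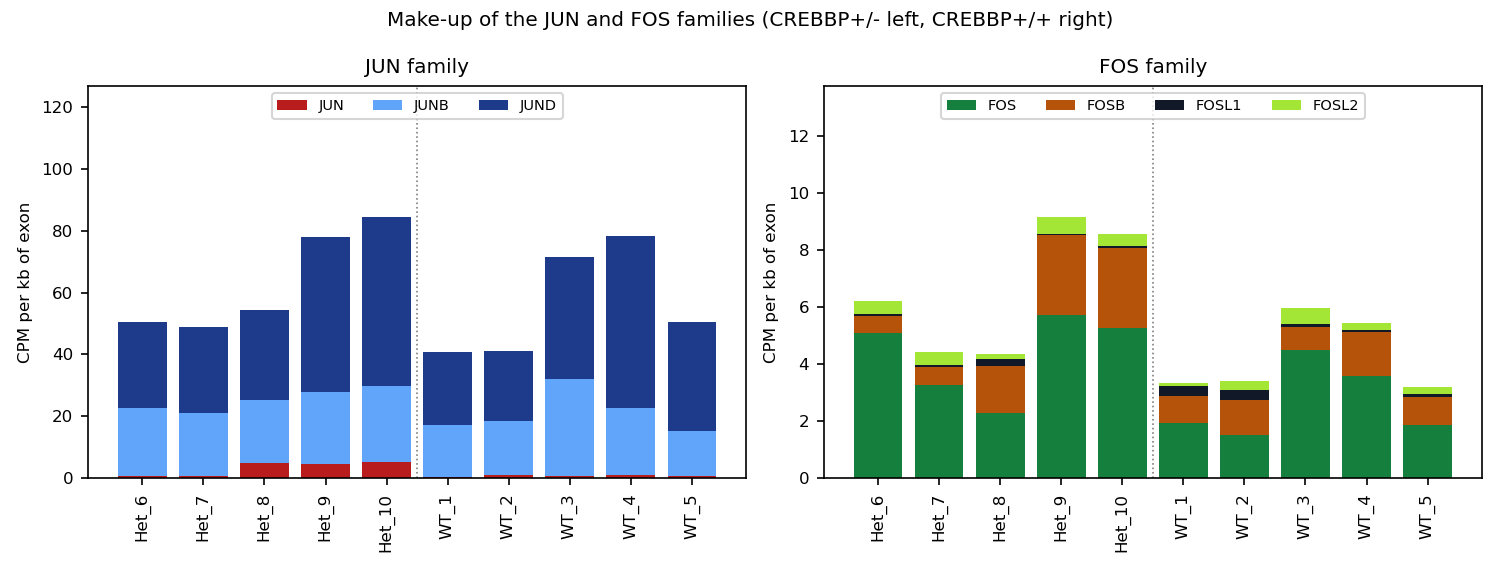
Stacked CPM per kb of exon for the JUN family (left panel) and the FOS family (right panel) in each library, CREBBP+/- to the left of the dotted line in each panel. JUN is 6.09 to 9.29% of the JUN family in Het_8, Het_9 and Het_10, and the FOS family is highest in Het_9 and Het_10.

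The design sets the 5 CREBBP+/- clones against the 5 CREBBP+/+ clones. None of the 8 members tested other than JUN passed in the quasi-likelihood test of edgeR (Benjamini-Hochberg adjusted p under 0.05 over 11961 genes), nor in DESeq2. JUN itself passed in neither. The background is as empty, with 0.0% of genes called by edgeR (0 genes, and 596 or 4.98% at an unadjusted p under 0.05), 0 called by limma-voom, 0.268% by DESeq2 (32 genes) and 16 genes by the edgeR likelihood ratio test. JUN averaged 11.8 ± 8.56 CPM in CREBBP+/- clones and 2.93 ± 1.17 CPM in CREBBP+/+ clones (SD, n = 5 each), a log2 fold change of 2.01. This is a description, since JUN was chosen on these libraries, and Het_6 and Het_7 were within the CREBBP+/+ range.

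Of these 8 members, 7 had an estimate above 0, with a median log2 fold change of 0.492, where 47.6% of all genes tested were above 0 with a median of -0.011. The members share the same libraries and were listed with earlier results of these data known, so this count is a description. The median of the 8 members was 0.231 without Het_8, 0.313 without WT_5 and 0.352 to 0.594 without any 1 of the others. It was 0.186 with the clusters as a covariate. FOS averaged 13.8 ± 4.72 CPM in CREBBP+/- clones and 8.58 ± 4.14 CPM in CREBBP+/+ clones (SD, n = 5 each), a log2 fold change of 0.68 (SE 0.35, 95% interval -0.09 to 1.46, edgeR adjusted p = 0.984). The estimates were 0.61 for FOSB (interval -0.38 to 1.59), 0.57 for ATF3 (-0.80 to 1.95), 0.49 for FOSL2 (-0.42 to 1.41) and 0.49 for EGR1 (-0.38 to 1.36). JUNB had 0.12 (-0.30 to 0.54), JUND 0.10 (-0.55 to 0.74) and BATF -0.06 (-1.07 to 0.94). Adjusted p-values of edgeR for these 7 genes were 0.988 to 0.995. Each of these intervals holds 0, and all but those of JUNB and JUND also hold a 2-fold change in one direction.

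All CREBBP+/- libraries lay above or below all CREBBP+/+ libraries for 0 of the 9 members, where 1.02% of genes tested did. Several estimates turned on single libraries, while that of FOS stayed at 0.54 to 0.95 when 1 library was left out. Without Het_8 that of ATF3 was 0.20, without WT_3, WT_4 or WT_5 it was 0.31 to 0.40, and without WT_1 or WT_2 it was 0.96. EGR1 had 0.26 without Het_8 and 0.31 without WT_5. FOSL2 had 0.30 without WT_1 and 0.83 without WT_3. FOSB had 0.35 without Het_9 or Het_10. JUNB had 0.33 without WT_3, 0.02 without WT_5 and 0.06 to 0.08 without WT_1, WT_2 or Het_10. JUND had -0.02 to -0.07 without Het_9, Het_10, WT_1 or WT_2, and BATF had 0.09 to 0.21 without Het_8, Het_9, Het_10 or WT_3. Without Het_9 and Het_10 together the estimate was 1.40 for JUN and -0.21 for FOSB.

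**Figure D3:**
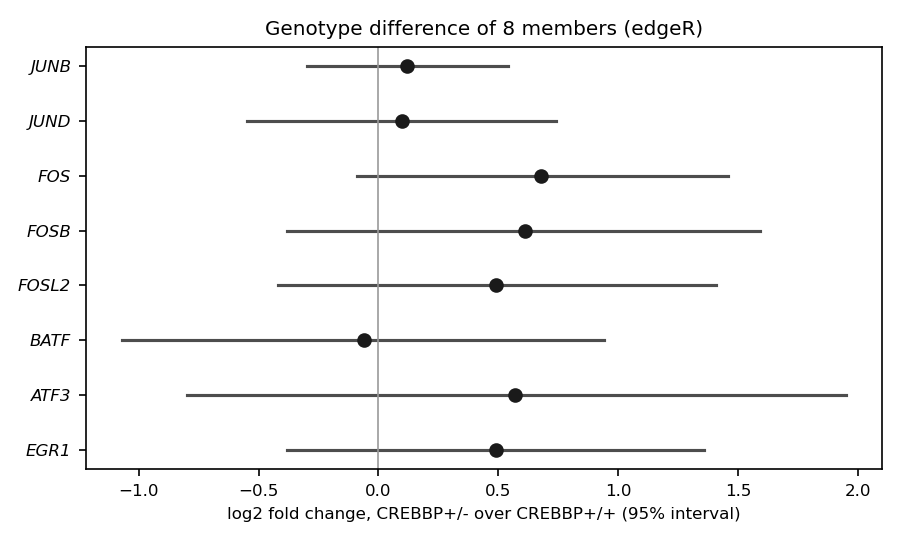
Log2 fold change of CREBBP+/- over CREBBP+/+ libraries (n = 5 each) from edgeR for the 8 members tested other than JUN, with lines for the 95% interval. The intervals of all 8 genes include 0.

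Within clusters the genotype differences were not alike. In log2 CPM, JUN was higher by 2.84 in Het_8 than in WT_1 and WT_2, while the mean of Het_6 and Het_7 minus that of WT_3, WT_4 and WT_5 was -0.25. EGR1 had 0.83 in the first cluster and -0.12 in the second, FOSB 0.58 and -0.78, JUND 0.34 and -0.62, and BATF -0.57 and 0.65. These 5 genes differed in sign between the clusters, as did JUNB (0.24 and -0.01) and FOSL2 (-0.21 and 0.47). FOS (0.40 and 0.38) and ATF3 (0.54 and 1.16) had the same sign in both, as did FOSL1 (-0.31 and -0.24), which did not pass the filter on low counts. The value of JUNB in the second cluster is close to no difference, and Het_8 is the only CREBBP+/- library of the first. With the clusters as a covariate, where Het_9 and Het_10 add nothing to the genotype estimate, the log2 fold change was 0.99 for JUN, 0.91 for ATF3 (edgeR adjusted p = 0.260) and 0.35 for FOS (edgeR adjusted p = 0.586), and the difference between clusters was not tested.

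Other genes of the pathway were taken from lists. None of their members passed in edgeR or DESeq2. Of 21 tested bZIP factors outside the members, 9 had an estimate above 0 and 12 below (median -0.039, but 0.063 without Het_6, 0.061 without WT_1 and -0.097 without Het_8), and 0 of them had the JUN pattern or its reverse. JDP2, a repressor that pairs with JUN, had 9.15 ± 3.47 CPM in CREBBP+/- clones and 14.1 ± 3.05 CPM in CREBBP+/+ clones (log2 fold change -0.62, SE 0.27), and was lowest in Het_9 and Het_10 (4.87 and 6.94 CPM). NFE2L2, the oxidative stress factor, had a log2 fold change of 0.28 (SE 0.13, and 0.18 without Het_9), CEBPG 0.27 (SE 0.12) and CREM, a CREB relative, 0.23 (SE 0.15, and 0.35 without Het_8).

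Of 29 tested immediate early genes outside the members, 11 had an estimate above 0 and 18 below (median -0.12, and -0.214 to -0.035 when 1 library was left out, the ends without Het_8 and without WT_4). NR4A1, an orphan nuclear receptor induced by antigen receptor signals, was the 1 gene with the JUN pattern, where 2.48% of all genes tested had it, so this count is near the background. It had 175, 133 and 162 CPM in Het_8, Het_9 and Het_10, 87.5 and 75.3 CPM in Het_6 and Het_7, and 56.5 to 89.1 CPM in the CREBBP+/+ libraries (log2 fold change 0.80, SE 0.24, edgeR adjusted p = 0.842). Its relative NR4A3 had a log2 fold change of 0.68 (SE 0.38), and had 6.05 CPM in Het_8 against 17.8 and 26.6 in Het_9 and Het_10. The kinase PLK3 (-0.73, SE 0.30) and the antiproliferative BTG1 (-0.54, SE 0.23, and -0.33 without WT_2) had estimates below 0. BTG1 was highest in WT_1 and WT_2 (145 and 180 CPM). WT_3, WT_4 and WT_5 had 87.3, 85.2 and 85.5 CPM, within the 64.5 to 104 CPM of CREBBP+/- libraries.

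Of 44 tested genes of the MAP kinase and SRF pathway, 15 had an estimate above 0 and 29 below (median -0.052, and -0.086 without WT_2 to -0.013 without WT_5). Lowest p-values belonged to DUSP5, a nuclear ERK phosphatase (3.41 ± 0.855 CPM in CREBBP+/- clones and 5.13 ± 0.554 CPM in CREBBP+/+ clones, -0.59, SE 0.20), the kinase ERK1, MAPK3 (-0.39, SE 0.14), the p38 activator MAP2K3 (-0.28, SE 0.10) and the ERK effector RPS6KA1 (-0.31, SE 0.15). DUSP5 was also the 1 gene of the list with the reverse pattern, with 2.83 to 3.03 CPM in the 3 JUN-high libraries, 4.87 and 3.47 CPM in Het_6 and Het_7 and 4.27 to 5.73 CPM in CREBBP+/+ libraries. DUSP8, a phosphatase of JNK and p38, had the JUN pattern, at 2.02, 3.31 and 3.73 CPM in Het_8, Het_9 and Het_10, 0.512 and 0.434 CPM in Het_6 and Het_7 and 0.0521 to 1.37 CPM in CREBBP+/+ libraries. A share of 1 in 44 each way is near the background of 2.48% and 2.68%.

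Among 12 regulators of JUN protein, 4 had an estimate above 0 and 8 below (median -0.019, and -0.045 without WT_5 to 0.005 without Het_8). FBXW7, the receptor of a ubiquitin ligase that acts on JUN, had the reverse pattern with 58.2, 55.3 and 51.8 CPM in Het_8, Het_9 and Het_10, 62.8 and 65.3 CPM in Het_6 and Het_7, and 63.7 to 69.2 CPM in CREBBP+/+ libraries (log2 fold change -0.16, SE 0.08, edgeR adjusted p = 0.977). The ligase scaffold CUL4A had 177 and 172 CPM in Het_9 and Het_10 and 96.0 to 117 CPM elsewhere. Of 27 described AP-1 targets, 12 were tested, 4 with an estimate above 0 and 8 below (median -0.176). This median rested on 1 library, as it was 0.011 without WT_2, and it was 0.069 with the clusters as a covariate and -0.005 with limma-voom. TNFRSF8, the receptor CD30, had 3.20, 5.06, 3.38, 0.276 and 0.373 CPM in Het_6 to Het_10 and 0.385 to 1.49 CPM in CREBBP+/+ libraries, so it parted Het_8 from Het_9 and Het_10. The growth factors HBEGF (0.72, SE 0.40) and AREG (1.67, SE 0.94, and 3.21 without WT_3) and the metallothionein MT2A (-0.67, SE 0.34) were at most 4.31 CPM in any library. ETS1 had the reverse pattern, at 611, 489 and 501 CPM in Het_8, Het_9 and Het_10, 676 and 659 CPM in Het_6 and Het_7 and 615 to 641 CPM in CREBBP+/+ libraries, so Het_8 at 611 CPM was barely below the lowest of these at 615 CPM. FBXW7 and ETS1 are 1 of 12 in each list, where 2.68% of all genes tested had the reverse pattern, and nothing is read from counts of 1.

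The genes most like JUN were found by the root-mean-square distance between log2 CPM profiles over the 10 libraries, each centred on its mean, among 11501 other genes with a mean of at least 1 CPM. FOSB was the 4th nearest (distance 0.75) and EGR1 ranked 43 (0.93), while JUND ranked 470 (1.13) and ATF3 1495 (1.22). FOS (1892), JUNB (2223) and FOSL2 (7414) were farther, and BATF ranked 11138 (1.93). The other 9 of the nearest 10 were no AP-1 factors. ALPL, an alkaline phosphatase, was nearest (0.69), with 15.9, 4.23 and 3.73 CPM in Het_8, Het_9 and Het_10 and at most 2.14 CPM elsewhere. SMIM3 (0.70), COBL, an actin nucleator (0.74), CCDC168, TAMALIN, KIF5C, a kinesin heavy chain, LARGE2 and PCDHB9 (0.78 each) followed, and H2BC12, a histone H2B gene, was the 10th (0.82). All but H2BC12 were above in the 3 libraries, where 2.48% of all genes tested were. JUN was chosen by this contrast and these genes by likeness to JUN, so this is a description. PCDHB9 and H2BC12 have close paralogs between which reads could be split. The profiles share libraries and depth, and low counts add noise to CCDC168, TAMALIN and PCDHB9, which were at most 6.98 CPM in any library.

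**Figure D4:**
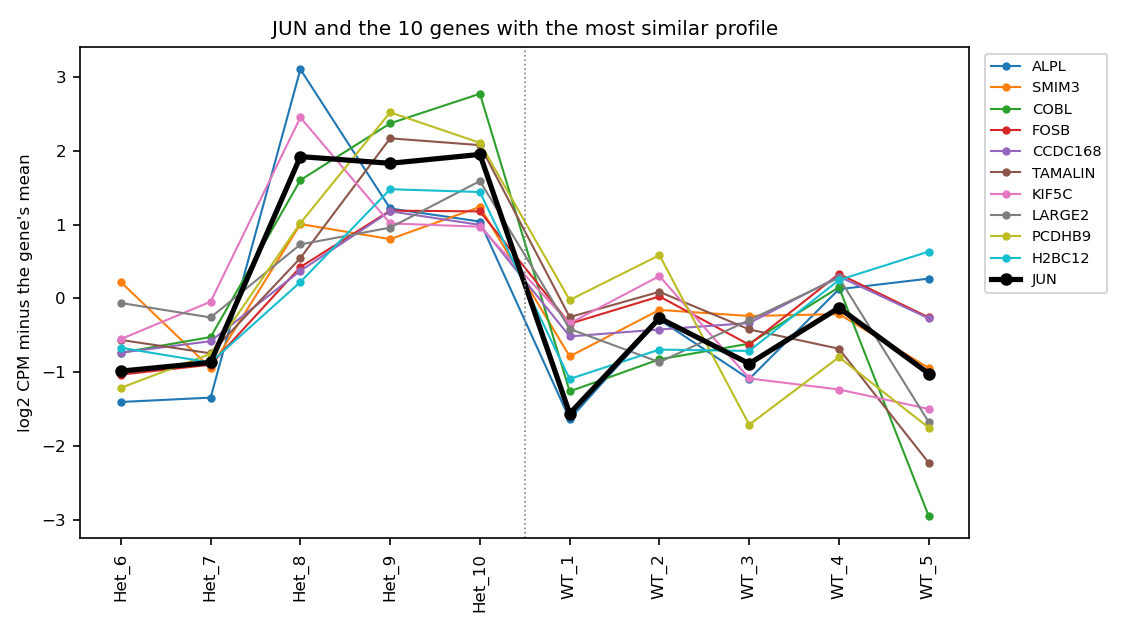
Log2 CPM minus the gene's mean over the 10 libraries, for JUN (thick black line) and the 10 genes with the smallest distance to it (thin lines), CREBBP+/- libraries to the left of the dotted line. FOSB is among them, and all lines but that of H2BC12 are higher in Het_8, Het_9 and Het_10 than in every other library. The genes were picked by likeness to JUN, so this is a description.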

How the data were processed

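The deposited table holds the authors' raw counts, 1 row per Ensembl gene and 1 column per library. STAR, featureCounts, FastQC, DESeq2 and the build GRCh38 are named in the submitters' processing notes, without roles, annotation or strand use. All 2541 deposited counts of 10000 or more carry 4 significant digits. Of 21174 identifiers 20804 were matched to a symbol. The CREBBP+/- columns carry numbers that no label has, so they were used as group members only. The filter (filterByExpr, minimum count 10, minimum total 15) left 11961 genes. CREBBP+/- and CREBBP+/+ libraries were compared by edgeR 4.0.16 (quasi-likelihood, robust, TMM) in R 4.3.3, two-sided. The code was checked on simulated counts without library clusters, so the check does not cover their effect on the test. Log2 CPM used a prior count of 2. Members and lists were chosen with earlier results of these data known. Named genes are all members, CREBBP, up to 4 genes with the smallest p of each list, and the 10 nearest to JUN. Listed genes with the JUN pattern were named after their values were seen. Alternatives were DESeq2 1.42.0, limma 3.58.1 (voom), the likelihood ratio test, other factors and filters, each library left out, Het_9 and Het_10 left out, and 3 clusters (average linkage) as a covariate. Promoters are from RefSeq (GRCh38.p14), with 9 of 10 members matched.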

Additional observations from a re-analysis of the deposited data

Results flagged for a closer look

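A library stood apart where most of the range of its 5 libraries lay between it and its nearest neighbour. This held for 3 of 22 groups of log2 CPM values, where chance gives about 1 in 20. Het_8 was highest of the CREBBP+/- libraries for FOSL1 (-0.75 log2 CPM, from 9 counts) and lowest for FOSL2 (0.38 log2 CPM). WT_3 was highest of the CREBBP+/+ libraries for BATF (5.08 log2 CPM).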

How the results depend on the processing

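No paired analysis was possible because the CREBBP+/- columns carry none of the replicate numbers in the labels. The count of called genes, 0 in edgeR, was 32 with DESeq2, 16 with the likelihood ratio test and 0 to 1 when 1 library was left out (1 without Het_6). It was 0 under each other alternative. Among 171 alternative estimates for the members, 157 kept their direction and 14 changed sign. JUND had a log2 fold change of -0.32 without Het_9 and Het_10 together and -0.29 with clusters as a covariate, and -0.07 to 0.32 leaving out 1 library. In the same order FOSB had -0.21 and -0.29 (0.35 to 0.83), and BATF 0.39 and 0.22 (-0.38 to 0.21). CUL4A had -0.06 and -0.07 (0.16 to 0.38). NACA, the fourth regulator of JUN protein by p (-0.14), had 0.08 with the clusters (-0.25 to 0.10). JUN stayed at 1.78 to 2.28 leaving out 1 library. CREBBP passed with DESeq2 (-0.72, adjusted p = 8.68e-05) and with the likelihood ratio test (-0.72). It did not pass in the main edgeR test (-0.73, adjusted p = 0.395), although all 5 CREBBP+/- libraries were below all CREBBP+/+ libraries. A gene that did not pass in that test is therefore not shown to be unchanged. The 3 members above and the 1 below in Het_8, Het_9 and Het_10 were the same genes with library totals and with DESeq2 normalized counts. Depth limits FOSL1, FOSL2 and ATF3 most.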
